A study of Mus musculus with 36 samples.

Results

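The 2 mature microRNAs (miRNAs) of the Mir676 hairpin, mmu-miR-676-5p and mmu-miR-676-3p (here miR-676-5p and miR-676-3p), were followed through small RNA sequencing of mouse prostate. They were taken by name from the deposited miRNA tables, as 2 of 1963 listed miRNAs. The samples were ventral and lateral prostate lobes of male mice of 10 or 30 weeks, with the strain label C56NL/6N. There were 3 Elac2 states: WT, KO, in which floxed Elac2 is deleted in the prostate by Pb-Cre, and A537T, in which every cell of the body carries threonine in place of alanine at that residue of ELAC2 on both alleles. KO and A537T mice were homozygous, and each line was studied without and with 1 copy of TRAMP, a transgene in which the probasin promoter drives SV40 T antigens in prostate epithelium. Because Pb-Cre acts in prostate epithelium, the other cells of a KO lobe still hold Elac2. There were 12 groups of 3 libraries, 36 in all, which the study describes as biological replicates, and KO and A537T shared their control libraries.

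An miRNA hairpin is cut from a longer transcript in the nucleus by Drosha and cut again in the cytoplasm by Dicer, which leaves a duplex of a 5p and a 3p strand. Argonaute usually keeps 1 strand and uses its seed to find target messenger RNAs, while the other strand is degraded, so the arms of a hairpin share a transcript but can differ in level. ELAC2, the enzyme mutated here, is known for trimming the 3′ side of immature transfer RNAs. Mir676 (ENSMUSG00000076398) lies on chromosome X at 100381097 to 100381185, plus strand, in GRCm38. This is within intron 2 of Eda (ENSMUSG00000059327), on the same strand in all 9 annotated transcripts of that gene, which encodes the ectodysplasin A ligand of skin appendage development. The hairpin is shown because both measured arms are cut from it, with the 3p arm in capitals (bases 55 to 75 of 89). The 3p arm is shown again with its seed, bases 2 to 8, in capitals. Both sequences are from RefSeq on GRCm38.p6, and the 3p arm occupies chrX:100381151-100381171.
Mir676 hairpin: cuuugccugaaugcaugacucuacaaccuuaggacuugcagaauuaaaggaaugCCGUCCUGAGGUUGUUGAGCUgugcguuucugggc
mmu-miR-676-3p: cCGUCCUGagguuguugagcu

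In the fold of lowest computed energy for the hairpin (RNAfold, -41.5 kcal/mol), 18 of the 21 bases of the 3p arm were paired, with partners between hairpin bases 17 and 38. None of the other sequences among 1738 mature miRNAs searched had the 3p seed, so no seed family could be set beside it here. The mature 5p sequence is not printed.

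Levels are given as CPM, the reads of a miRNA per 1000000 miRNA reads of its library. The libraries held 4544257 to 21870210 reads, apart from library 35 (A537T, 10 weeks), which held 655455. Both arms were detected in 36 of 36 libraries. miR-676-5p had 119 to 708 reads per library, except for 13 in library 35, and miR-676-3p had 891 to 3501, except for 89. Library 35 therefore gave 19.8 CPM of the 5p arm with a 95% Wilson interval of 11.6 to 33.9, against 45.0 to 52.1 around the 48.4 CPM of library 11. Such intervals cover counting error only, since reads amplified by PCR without molecular identifiers are not independent molecules. Nothing in these tables measured Elac2 messenger RNA, so the genotype of a library could not be checked.

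Reads of cell type marker miRNAs differed between groups. The 4 skeletal muscle miRNAs (miR-1a-3p, miR-133a-3p, miR-133b-3p, miR-206-3p) took 9.71% to 30.6% of reads in WT at 10 weeks, 3.72% to 13.7% in A537T at 10 weeks, 0.734% to 6.49% in KO at 10 weeks and at most 3.09% in the other 27 libraries. The 4 smooth muscle and stroma miRNAs (miR-143-3p, miR-145a-5p, miR-199ab-3p, miR-214-3p) took 6.15% to 39.9%, and the 6 epithelial ones (miR-200 family members, miR-141-3p, miR-205-5p) took 3.81% to 10.0%. All of these markers, and those of leukocytes, neuroendocrine cells and red cells, were above 0 in every library. In bulk tissue, fewer cells that hold a miRNA and less of it per cell cannot be told apart, and reads from muscle lower the CPM of every other miRNA.

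The 3p arm was the more abundant in 36 of 36 libraries. miR-676-3p ran from 72.3 to 230.2 CPM with a median of 155, and ranked between 104 and 177 among the miRNAs of a library. miR-676-5p ran from 17 to 50.0 CPM with a median of 26.7, at ranks 177 to 278. The ratio of 3p to 5p lay between 3.78 and 8.79, so the 5p arm gave 10.2% to 20.9% of the reads of both arms, with a median of 15.2%. The arms did not keep a fixed ratio even between libraries of 1 group. In WT-TRAMP of 10 weeks the 5p share was 10.2%, 14.4% and 15%, and in A537T of 10 weeks it was 16.7%, 12.7% and 20.9%, where the 12.7% of library 35 had an interval of 7.60% to 20.6%.

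**Figure D1:**
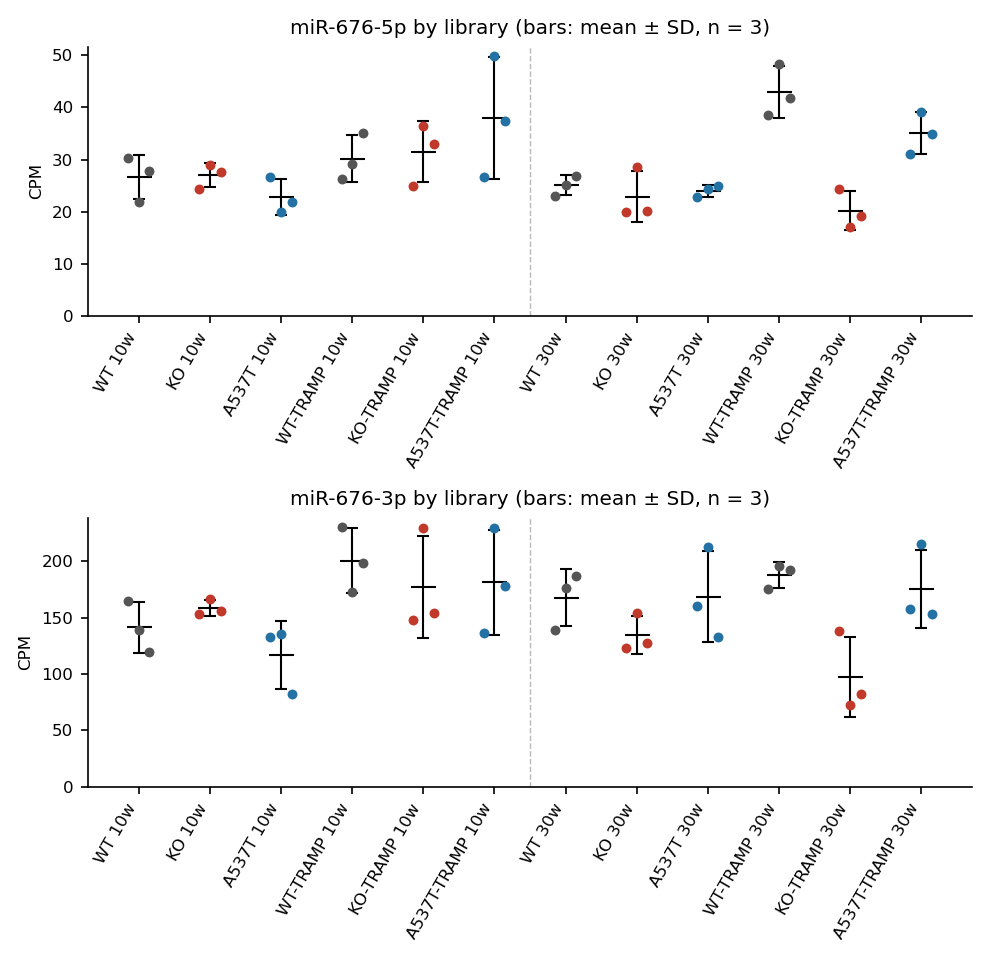
CPM of miR-676-5p (top) and miR-676-3p (bottom) in the 36 libraries, by group, with WT in grey, KO in red and A537T in blue, and bars for the mean ± SD of 3 libraries. The 5p arm reaches its highest group mean, 42.9 CPM, in WT-TRAMP of 30 weeks, and both arms have their lowest group mean in KO-TRAMP of 30 weeks.

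Over the 12 groups, miR-676-5p was highest in WT-TRAMP of 30 weeks at 42.9 ± 5.01 CPM (SD, n = 3). Below it came A537T-TRAMP of 10 weeks (38.0 ± 11.7), A537T-TRAMP of 30 weeks (35 ± 4.01), KO-TRAMP of 10 weeks (31.5 ± 5.91) and WT-TRAMP of 10 weeks (30.2 ± 4.58). The 6 groups without TRAMP lay between 27 ± 2.35 CPM (KO, 10 weeks) and 22.7 ± 3.47 (A537T, 10 weeks), and KO-TRAMP of 30 weeks was lowest at 20.1 ± 3.73. In CPM, 5 of the 6 TRAMP groups thus stood at the top of the order and the remaining one at its bottom. The highest group mean was 2.13 times the lowest, yet 0 of 11 neighbours in this order differed by more than their pooled SD. Levels were also computed per 1000000 reads other than those of skeletal muscle, smooth muscle and stroma miRNAs. On that scale WT of 10 weeks held 50.4, 33.4 and 44.6, and KO of 10 weeks 38.5, 45.8 and 43.5. WT-TRAMP of 10 weeks held 29.6, 32.3 and 39.8, so it no longer stood above them. WT-TRAMP and KO-TRAMP of 30 weeks stayed the highest and lowest groups, at 48.3 to 53.7 and 25.6 to 26.1.

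miR-676-3p followed a similar but not identical order in CPM. It was highest in WT-TRAMP of 10 weeks at 201 ± 28.6 CPM, followed by WT-TRAMP of 30 weeks (188 ± 11.3) and A537T-TRAMP of 10 weeks (181 ± 46.9), and lowest in A537T of 10 weeks (117 ± 30.0) and KO-TRAMP of 30 weeks (97.6 ± 35.4). The highest mean was 2.06 times the lowest. Only KO and WT of 10 weeks, at 159 ± 6.76 and 141.4 ± 22.8 CPM, differed by more than their pooled SD among 11 pairs of neighbours, and the libraries of all such pairs overlapped.

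Both arms were chosen by their measured levels in the TRAMP groups of 30 weeks, so values in those 9 libraries are described without a test. In WT-TRAMP of 30 weeks, libraries 10, 11 and 12 held 38.6, 48.4 and 41.9 CPM of miR-676-5p. In KO-TRAMP of the same age, libraries 16, 17 and 18 held 24.2, 17 and 19.2. All 3 KO-TRAMP libraries lay below all WT-TRAMP libraries, with a difference of -1.06 ± 0.17 (SE) in log2(CPM + 1), the scale of every difference below. For miR-676-3p the WT-TRAMP libraries held 175, 196 and 193 CPM and the KO-TRAMP libraries 138, 72.3 and 82.4. These groups did not overlap either, with a difference of -0.99 ± 0.29 (SE), and library 16 was nearest to the controls for both arms. Over the 514 miRNAs with a mean of at least 1 CPM, 39 (7.59%) lay wholly below WT-TRAMP in KO-TRAMP and 92 (17.9%) wholly above, and the median difference was 0.10. A lower difference than that of miR-676-5p was seen for 7 miRNAs, and than that of miR-676-3p for 11. These ranks are a description, since the arms were chosen by these values.

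The smooth muscle and stroma list varied between these libraries. It took 6.15% of reads in library 16, 34.2% in library 17 and 24.5% in library 18, against 9.61% to 19.8% in WT-TRAMP. Library 16 thus lay below the WT-TRAMP range, and libraries 17 and 18 above it. The means of KO-TRAMP and WT-TRAMP were 205985 and 134845 CPM for miR-143-3p and 4367 and 3757 for miR-145a-5p. They were 5912 and 5085 for miR-199ab-3p, and 116 and 117 for miR-214-3p. The neuroendocrine and neural list (miR-375-3p, miR-7a-5p, miR-9-5p, miR-124-3p) took 0.563%, 1.87% and 1.49% in the same KO-TRAMP libraries and 0.433% to 0.809% in WT-TRAMP. Within that list the means of KO-TRAMP and WT-TRAMP were 6564 and 1842 CPM for miR-375-3p, 5988 and 3862 for miR-7a-5p, 543 and 493 for miR-9-5p, and 0.451 and 12.6 for miR-124-3p, so its members did not move together. The part of this list in the result was not tested. The 6 epithelial miRNAs took 5.96% to 8.07% in KO-TRAMP and 5.84% to 7.73% in WT-TRAMP. When reads of the 8 skeletal muscle, smooth muscle and stroma miRNAs were left out of the totals, miR-676-5p measured 25.9, 26.1 and 25.6 per 1000000 other reads in libraries 16, 17 and 18, and 48.3, 53.7 and 48.7 in WT-TRAMP. The spread among the KO-TRAMP libraries was small on this scale and the difference was -0.93. miR-676-3p measured 147, 111 and 110.0 in KO-TRAMP against 220, 218 and 224 in WT-TRAMP, a difference of -0.85.

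In A537T-TRAMP of 30 weeks the difference from WT-TRAMP was smaller. Libraries 13, 14 and 15 held 31.2, 39.2 and 34.8 CPM of miR-676-5p, of which 2 lay below all WT-TRAMP libraries, and the difference was -0.29 ± 0.13 (SE). miR-676-3p held 158, 215 and 154 CPM there, above and below the controls, with a difference of -0.11 ± 0.16 (SE). Neither arm separated the groups, whereas 4.86% of the 514 miRNAs lay wholly below WT-TRAMP and 15.2% wholly above. KO-TRAMP and A537T-TRAMP were set against the same 3 control libraries.

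The arms differed in how they stood between TRAMP and non-TRAMP prostate at 30 weeks. In WT without TRAMP, miR-676-5p held 23.1, 25.1 and 26.9 CPM, all below the 38.6 to 48.4 of WT-TRAMP, a difference of 0.75 ± 0.11 (SE). The 3p arm held 139, 177 and 187 CPM against 175 to 196, overlapping, with a difference of 0.17 ± 0.14 (SE). In this contrast 23.3% of miRNAs lay wholly above and 23.2% wholly below. In A537T, miR-676-5p was again higher with TRAMP in all 3 libraries (31.2 to 39.2 against 22.8 to 24.9 CPM), by 0.53 ± 0.10 (SE), beside 19.5% of miRNAs wholly above and 11.5% wholly below, while the 3p arm differed by 0.07 ± 0.25 (SE) with overlap. In KO neither arm separated the groups, with differences of -0.17 ± 0.22 (SE) for 5p (17 to 24.2 against 19.9 to 28.5 CPM) and -0.51 ± 0.30 (SE) for 3p (72.3 to 138 against 123 to 154 CPM), beside 9.53% of miRNAs wholly below and 32.1% wholly above. The 4 leukocyte miRNAs (miR-142a-3p, miR-142a-5p, miR-150-5p, miR-223-3p) took more reads with TRAMP in every line at 30 weeks and without overlap, at 0.0833% to 0.108% against 0.0209% to 0.0321% in WT, 0.0863% to 0.129% against 0.0395% to 0.0574% in A537T and 0.0608% to 0.158% against 0.0407% to 0.0491% in KO. Their part in the 5p differences was not tested.

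Along age on the TRAMP background, miR-676-5p went opposite ways in WT and KO. WT-TRAMP libraries went from 26.2, 29.2 and 35.2 CPM at 10 weeks to 38.6 to 48.4 at 30 weeks with no overlap, a difference of 0.50 ± 0.15 (SE), beside 17.9% of miRNAs wholly above and 25.1% wholly below. KO-TRAMP libraries went from 25, 36.5 and 33 CPM to 17 to 24.2, a difference of -0.62 ± 0.21 (SE), with no overlap, beside 5.64% of miRNAs wholly below and 19.3% wholly above. The 3p arm of KO-TRAMP was also wholly lower at 30 weeks, at 148, 230 and 154 CPM against 72.3 to 138, a difference of -0.88 ± 0.35 (SE). In WT-TRAMP the 3p arm overlapped between ages, at 173 to 230 and 175 to 196 CPM, with a difference of -0.09 ± 0.13 (SE). A537T-TRAMP overlapped in both arms, with differences of -0.07 ± 0.27 and -0.03 ± 0.27 (SE), where 4.47% of miRNAs lay wholly below and 19.5% wholly above. The leukocyte list was wholly higher at 30 than at 10 weeks in all 3 lines with TRAMP. It took 0.0833% to 0.108% against 0.0374% to 0.0695% in WT-TRAMP and 0.0608% to 0.158% against 0.0402% to 0.0472% in KO-TRAMP. In A537T-TRAMP it took 0.0863% to 0.129% against 0.0257% to 0.0460%. The smooth muscle and stroma list took 6.15% to 34.2% in KO-TRAMP of 30 weeks and 7.50% to 17% at 10 weeks, and the part of either list was not tested. The values of the arms, too, are a description, since they hold the libraries that led to the choice.

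**Figure D2:**
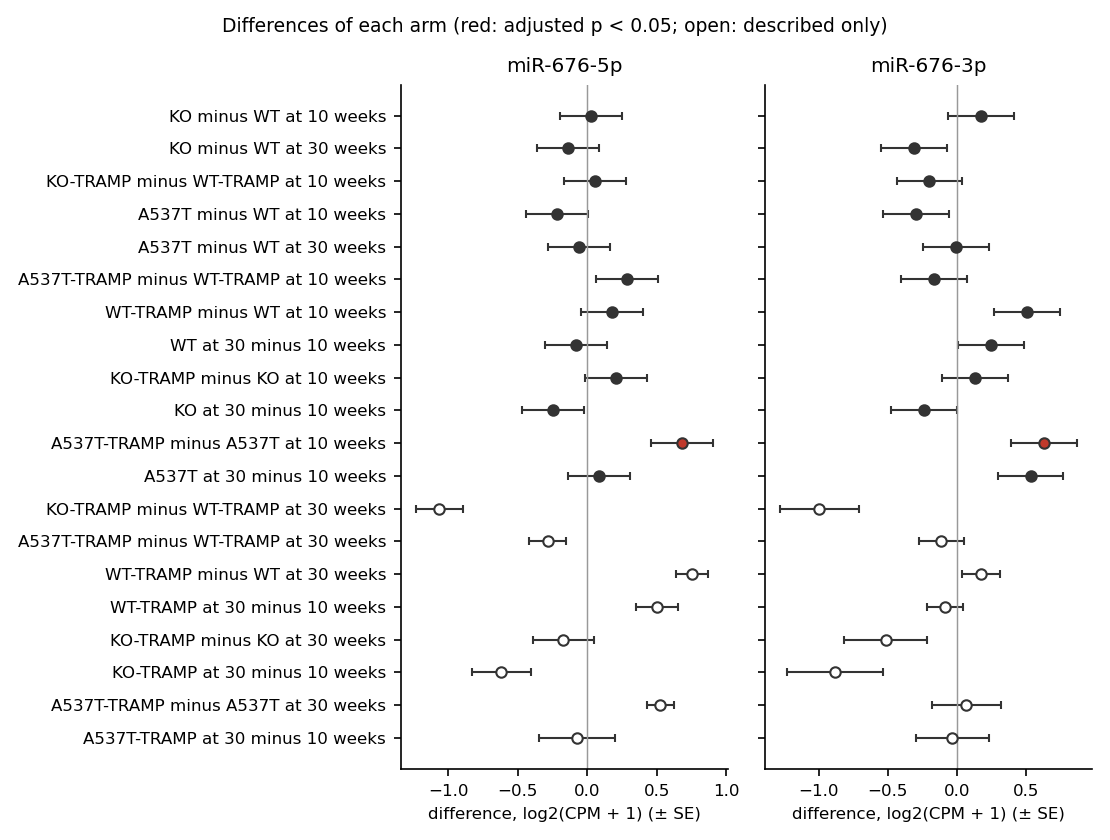
Difference of each arm in log2(CPM + 1) for 20 comparisons, with bars of ± 1 SE. Red points passed an adjusted p of 0.05 (limma), dark points were tested and did not, and open points hold 30-week TRAMP libraries and were not tested. The most negative points, at -1.06 and -0.99, are KO-TRAMP against WT-TRAMP at 30 weeks.

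The remaining 27 libraries lay outside the groups whose levels led to the choice. They were tested with limma over the 505 miRNAs with a mean of at least 1 CPM, with Benjamini-Hochberg adjustment. Earlier results of these libraries were known when the arms were chosen, so the tests are not fully independent of that choice. Neither Elac2 state changed an arm past the threshold. In KO of 10 weeks, miR-676-5p held 24.4, 29.0 and 27.6 CPM against 30.3, 21.9 and 27.8 in WT, a difference of 0.03 ± 0.22 (SE) with a 95% interval of -0.44 to 0.49. miR-676-3p held 153, 166 and 156 CPM against 165, 139 and 120, a difference of 0.18 ± 0.24 (SE; limma adjusted p = 0.688). In this comparison 19 miRNAs (3.76%) were called. At 30 weeks KO held 19.9, 28.5 and 20.2 CPM of the 5p arm and 123, 154 and 128 of the 3p arm, with differences from WT of -0.14 ± 0.22 (SE) and -0.31 ± 0.24 (SE), where the interval for 3p ran from -0.80 to 0.18. No miRNA was called (0.0%) by limma there, though 94 had an unadjusted p under 0.05, and edgeR called 50 and DESeq2 73. In A537T without TRAMP, the 3p arm differed from WT by -0.29 at 10 weeks and -0.01 at 30 weeks, and the 5p arm by -0.22 and -0.06. The value of -0.01 kept its sign in 7 of 15 alternatives. Over all 505 miRNAs the median differences at 10 and 30 weeks were 0.18 and -0.19 in KO, and 0.13 and -0.11 in A537T. With TRAMP at 10 weeks, KO-TRAMP differed from WT-TRAMP by 0.05 ± 0.22 (SE) in 5p and -0.20 ± 0.24 (SE) in 3p, and A537T-TRAMP by 0.29 ± 0.22 (SE) and -0.17 ± 0.24 (SE). limma called 0 miRNAs in the 3 A537T comparisons and in KO-TRAMP, with 23 to 42 at an unadjusted p under 0.05, while edgeR called at most 17 and DESeq2 at most 20. The limma adjusted p of either arm was at least 0.568 over all 6 of these comparisons.

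Among the 16 contrasts tested by limma on CPM, A537T-TRAMP against A537T at 10 weeks was the one in which the arms passed. In A537T-TRAMP, miR-676-5p held 26.6, 50.0 and 37.4 CPM against 26.6, 19.8 and 21.8 in A537T. Library 5 was highest, and library 4 fell within the A537T range. The difference was 0.68 ± 0.22 (SE; limma adjusted p = 0.0244). miR-676-3p held 136, 230 and 178 CPM against 132.9, 136 and 82.4, with a difference of 0.63 ± 0.24 (SE; limma adjusted p = 0.0441). The groups stood apart only by 136.5 CPM in library 4 against 135.8 in library 35. Library 35 held 89 reads of the 3p arm, with a Wilson interval of 110.4 to 167.1 CPM. The order of libraries 4 and 35 thus lay within counting error. In this contrast 185 miRNAs (36.6%) were called, 66 (13.1%) of them higher with TRAMP. In WT-TRAMP the 3p arm was higher in 3 of 3 libraries, at 173 to 230 CPM against 120 to 165, but the difference, 0.51 ± 0.24 (SE), missed the threshold (limma adjusted p = 0.112), where 31.7% of miRNAs were called. The 5p arm of WT-TRAMP differed by 0.18 ± 0.22 (SE), and in KO-TRAMP the arms differed by 0.20 ± 0.22 and 0.13 ± 0.24 (SE), where 41.6% of miRNAs were called. For KO-TRAMP against KO both arms passed in edgeR (0.68 in 5p, adjusted p = 0.0333, and 0.60 in 3p, adjusted p = 0.0251), and 3p passed in DESeq2 (0.51, adjusted p = 0.0443) and in limma with median-of-ratios scaling (0.52, adjusted p = 0.0497). No interaction of line with TRAMP passed in an arm, with limma adjusted p from 0.527 to 0.982. For KO, limma called 1 miRNA (0.198%), edgeR 11 and DESeq2 14, and 64 had an unadjusted p under 0.05. For A537T, limma called 0 (0.0%), edgeR and DESeq2 also called 0, and 39 had an unadjusted p under 0.05. Over the 3 lines together, TRAMP libraries of 10 weeks were higher by 0.35 in 5p (exact permutation within lines, 9 against 9 libraries, two-sided p = 0.0163, adjusted over 6 tests 0.0488) and by 0.42 in 3p (p = 0.00975, adjusted 0.0488), while the log2 ratio of the arms differed by -0.06 (p = 0.651).

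This TRAMP difference at 10 weeks depended on the scaling. The skeletal muscle list took 0.734% to 30.6% of reads without TRAMP and 0.218% to 3.09% with it, and the smooth muscle and stroma list took 7.08% to 39.9% and 7.50% to 22.6%. The 3 red cell miRNAs (miR-451a, miR-144-3p, miR-486ab-5p) took 0.105% to 0.193% without TRAMP and 0.0137% to 0.0615% with it, and the epithelial list 3.81% to 6.67% and 6.00% to 9.24%. The part of muscle, stroma, red cell or epithelial reads in this difference was not tested. With the 8 skeletal muscle, smooth muscle and stroma miRNAs left out of the totals, the pooled differences were -0.08 in 5p (exact permutation, adjusted p = 0.781) and -0.03 in 3p (adjusted p = 0.866). On that scale A537T-TRAMP differed from A537T by 0.29 in 5p (limma adjusted p = 0.350) and 0.23 in 3p (limma adjusted p = 0.460). The 3p difference of WT-TRAMP from WT was 0.00047 there (limma adjusted p = 0.999). Under median-of-ratios scaling, which sets the typical miRNA equal between libraries, the pooled differences were 0.55 in 5p (exact permutation, adjusted p = 0.0075) and 0.62 in 3p (adjusted p = 0.0015). The pooled TRAMP difference at 10 weeks was thus seen under total and median-of-ratios scaling, but not with the 8 miRNAs left out of the totals. Under total scaling without library 35, its adjusted p by exact permutation was 0.061 for either arm. The call in A537T-TRAMP was lost in 5p without library 5, 6, 35 or 36 and in 3p without library 5, 6 or 36, with limma adjusted p of up to 0.130 and 0.239.

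**Figure D3:**
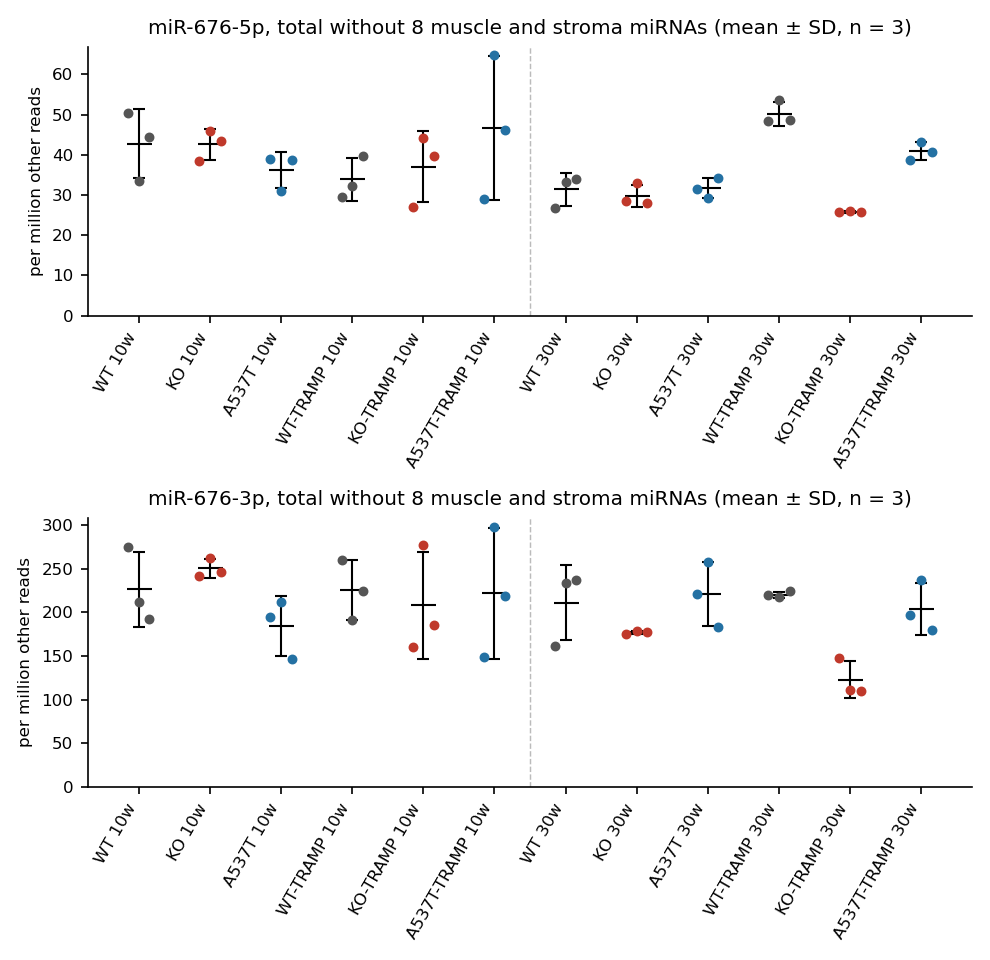
Reads of miR-676-5p (top) and miR-676-3p (bottom) per 1000000 reads other than those of 8 muscle and stroma miRNAs, by library and group (WT grey, KO red, A537T blue; bars are mean ± SD of 3 libraries). The KO-TRAMP libraries of 30 weeks lie at 25.6 to 26.1 for 5p and 110.0 to 147 for 3p, below the other TRAMP libraries of that age.

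Between 10 and 30 weeks without TRAMP no arm passed within a line by limma on CPM. WT differed by -0.08 ± 0.22 (SE) in 5p and 0.25 ± 0.24 (SE) in 3p, beside 9.31% of miRNAs called. KO differed by -0.24 ± 0.22 (SE) and -0.24 ± 0.24 (SE), beside 12.9% called, and A537T by 0.08 ± 0.22 (SE) and 0.53 ± 0.24 (SE; limma adjusted p = 0.139), beside 13.9% called. No interaction of line with age passed in an arm (limma adjusted p from 0.418 to 0.834). limma called 0 miRNAs (0.0%) in either, with 91 (KO) and 41 (A537T) at an unadjusted p under 0.05, while edgeR called 8 and 0 and DESeq2 21 and 12. For A537T the 3p libraries held 132.9, 136 and 82.4 CPM at 10 weeks and 160, 213 and 133.1 at 30 weeks. This 3p difference passed in edgeR (0.86, adjusted p = 0.0071), DESeq2 (0.69, adjusted p = 0.0131) and limma with median-of-ratios scaling (0.72, adjusted p = 0.0197). Over the lines the 5p arm differed by -0.08 (exact permutation, 9 against 9 libraries, p = 0.369) and the 3p arm by 0.18 (p = 0.243). With muscle and stroma miRNAs left out of the totals, 5p differed by -0.37 (exact permutation, adjusted p = 0.012) and 3p by -0.11 (adjusted p = 0.778), and under median-of-ratios scaling they differed by 0.11 (adjusted p = 0.476) and 0.38 (adjusted p = 0.006). The directions at 30 weeks without TRAMP thus turned with the scaling.

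The share of the 5p arm is free of the library total, since both arms come from the same library. By group it was lowest in A537T of 30 weeks, at 12.8% ± 2.78 (SD, n = 3), and highest in WT-TRAMP of 30 weeks, at 18.6% ± 1.07. In WT-TRAMP of 30 weeks its libraries gave 17.8% to 19.8%, above the 12.4% to 14.2% of WT of that age and the 10.2% to 15% of WT-TRAMP of 10 weeks. KO-TRAMP of 30 weeks gave 14.9%, 19% and 18.9%, so it overlapped WT-TRAMP in the share while it lay below in both levels. Without TRAMP, the log2 ratio of 5p to 3p was lower at 30 than at 10 weeks by 0.26 over the lines, which missed the threshold (exact permutation, p = 0.051, adjusted 0.102).

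**Figure D4:**
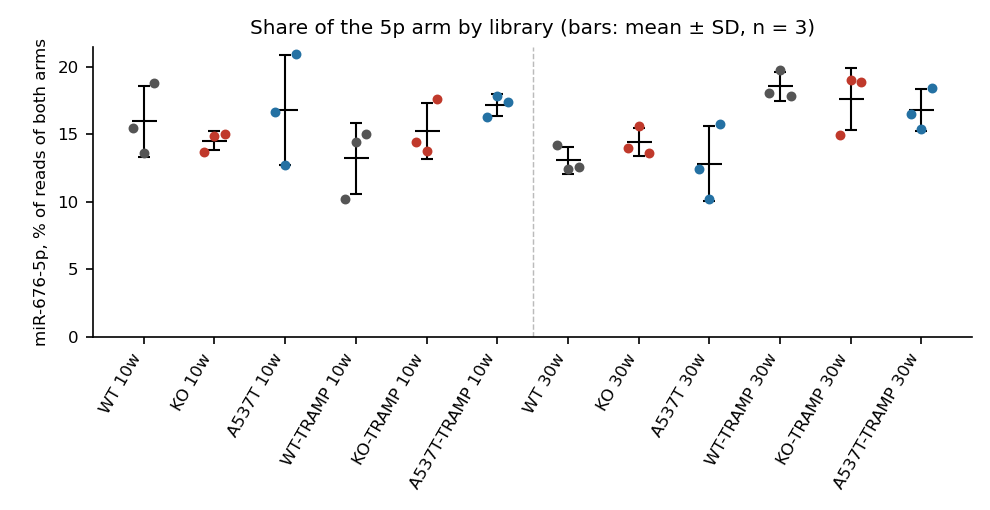
Reads of miR-676-5p as a percent of the reads of both arms, by library and group (WT grey, KO red, A537T blue; bars are mean ± SD of 3 libraries). The share stays between 10.2% and 20.9%, and WT-TRAMP of 30 weeks has the highest mean, 18.6%.

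The arms varied together in part. Over the 36 libraries, deviations of log2(CPM + 1) from the group means had a Pearson r of 0.61 between the arms, as a description over libraries that share group and total. Among 297 other miRNAs with a mean of at least 10 CPM, miR-676-3p ranked 2nd in likeness to miR-676-5p (Pearson r = 0.71 over 36 libraries), after miR-26b-5p (0.73) and before miR-1291 (0.67), miR-26a-5p (0.66) and miR-3473b (0.66). For miR-676-3p the order was let-7b-5p (0.80), miR-1291 (0.73), miR-26b-5p (0.73), miR-676-5p (0.71) and let-7f-1-3p (0.71). miR-26b-5p averaged 7811 ± 663 CPM in WT-TRAMP and 5468 ± 1837 in KO-TRAMP of 30 weeks (SD, n = 3). Its libraries ran from 7228 to 8533 CPM in WT-TRAMP and from 3842 to 7461 in KO-TRAMP, so the groups overlapped. let-7b-5p averaged 9763 ± 1068 and 6929 ± 2769 CPM in the same groups. These likenesses share the library totals and the muscle reads described above.

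Of the 505 miRNAs tested, 497 could be placed on a chromosome and 50 of them lay on X only. In KO-TRAMP against WT-TRAMP at 30 weeks, the 49 X-linked miRNAs with at least 1 CPM had a median difference of 0.05, beside 0.10 over all 514. Of these 49, 3 lay wholly below and 8 wholly above, beside 39 (7.59%) and 92 (17.9%) of all 514. The X-linked list holds both arms of miR-676, and both are among the 3 below, so this count is not independent of the choice. In A537T-TRAMP against A537T at 10 weeks, 6 of the 50 were called higher and 11 lower by limma, beside 66 (13.1%) and 119 (23.6%) of all 505, with a median of -0.21 beside -0.26. Both arms of miR-676 are among the 6 called higher.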

How the data were processed

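Small RNA of 36 prostate samples was prepared with the Illumina TruSeq kit and sequenced on a NovaSeq. The authors merged read pairs with BBMerge, counted miRNAs with mirDeep2 against GRCm38 and miRBase, and summed identical sequences. They deposited 8 tables of normalised counts, a signal in which reads are divided by a DESeq2 size factor. Each deposited table of comparisons holds shrunken log2 fold changes and s-values, which were not used. Columns carry a library number; groups rest on the table names, a column in both the KO and the Mut table being the shared control and Mut being read as A537T. Unassigned columns: 0.

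Division by the value of 1 read gave whole reads (100% of values within 0.01), which were scaled to CPM by library total, so that separately normalised tables could be compared. Tests used limma 3.58.1 with a variance trend on log2(CPM + 1), for miRNAs with a mean of at least 1 CPM, two-sided, with Benjamini-Hochberg adjustment and a threshold of 0.05; this scale understates changes of low miRNAs. Pooled tests were exact permutations within lines. Alternatives were median-of-ratios scaling, a pseudocount of 5, no filter or at least 10 CPM, all 36 libraries or own groups only, edgeR 4.0.16, DESeq2 1.42.0 and leaving out each library. Totals without muscle and stroma miRNAs were added after seeing the data. The members and lists were chosen with earlier results of these data known. Named miRNAs were both arms, the 5 most like each arm and the X-linked list.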

Additional observations from a re-analysis of the deposited data

Results flagged for a closer look

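miR-676-5p went opposite ways with age on the TRAMP background in every library of 2 lines. All 3 WT-TRAMP libraries of 30 weeks lay above all of 10 weeks, with a difference of 0.50 in log2(CPM + 1), as did 17.9% of 514 miRNAs, and all 3 KO-TRAMP libraries of 30 weeks lay below all of 10 weeks, with a difference of -0.62, as did 5.64% of miRNAs. The difference between the lines was not tested, because the 30-week libraries led to the choice of this miRNA.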

How the results depend on the processing

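The differences of KO-TRAMP from WT-TRAMP at 30 weeks kept their sign under 11 alternatives each, at -1.24 to -0.93 in 5p and -1.27 to -0.81 in 3p. The calls of A537T-TRAMP against A537T at 10 weeks were lost in 5p and 3p without the filter on low miRNAs (differences 0.68 and 0.63, limma adjusted p = 0.0521 and 0.104), in a fit of their own groups (the same differences, adjusted p = 0.0917 and 0.115) and with totals without muscle and stroma miRNAs (0.29 and 0.23). Leaving out a library gave 0.47 to 0.91 in 5p and 0.40 to 0.82 in 3p. KO-TRAMP against KO at 10 weeks passed in 3p with median-of-ratios scaling (0.52, limma adjusted p = 0.0497) and DESeq2 (0.51, adjusted p = 0.0443), and in both arms with edgeR (5p 0.68 and 3p 0.60, adjusted p = 0.0333 and 0.0251). A537T at 30 against 10 weeks passed in 3p with median-of-ratios scaling (0.72), edgeR (0.86) and DESeq2 (0.69), with adjusted p = 0.0197, 0.0071 and 0.0131.

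Signs of small differences turned with the scaling or tool, and the cause was not tested. With median-of-ratios scaling, edgeR and DESeq2 in turn, KO against WT at 10 weeks gave -0.21, -0.25 and -0.24 in 5p and -0.062, -0.079 and -0.063 in 3p, and at 30 weeks 0.092, 0.18 and 0.11 in 5p, with 0.012 in 3p by edgeR. A537T against WT at 30 weeks gave 0.044, 0.17 and 0.066 in 3p and 0.099 in 5p by edgeR, and A537T-TRAMP against WT-TRAMP at 10 weeks gave 0.0019, 0.022 and 0.035 in 3p. KO at 30 against 10 weeks gave 0.16, 0.23 and 0.17 in 5p and 0.18, 0.23 and 0.17 in 3p. The TRAMP effect at 10 weeks in KO minus that in WT gave 0.053, 0.074 and 0.061 in 3p. The age effect in KO minus that in WT gave 0.30, 0.42 and 0.35 in 5p, with 0.091 (edgeR) and 0.0019 (DESeq2) in 3p. KO-TRAMP against KO at 30 weeks moved to -0.46, -0.49 and -0.50 in 5p, and KO-TRAMP at 30 against 10 weeks to -0.94 in 5p by edgeR.

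With totals without muscle and stroma miRNAs, chosen after seeing the data, A537T against WT at 30 weeks gave 0.020 in 5p and 0.073 in 3p, WT-TRAMP against WT at 10 weeks -0.32 in 5p, KO-TRAMP against KO at 10 weeks -0.22 and -0.31, WT at 30 against 10 weeks -0.11 in 3p, A537T at 30 against 10 weeks -0.18 in 5p, and A537T-TRAMP against A537T at 30 weeks 0.36 in 5p. The 3p difference of WT-TRAMP from WT at 10 weeks became 0.00047. The pooled TRAMP differences became -0.084 and -0.026, and the pooled age differences -0.37 and -0.11. With median-of-ratios scaling the pooled age differences were 0.11 in 5p and 0.38 in 3p, and the mean levels moved past their SD in KO of 10 weeks (22.9 CPM of 5p and 135 of 3p) and KO of 30 weeks (158 CPM of 3p). That scaling shared 3 of the 5 miRNAs most like 5p, and group means shared 3 of 5 for either arm.

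Leaving out 1 library turned some differences near 0. The ranges were -0.10 to 0.12 in 5p for KO against WT at 10 weeks (negative without library 29 or 32), -0.059 to 0.21 in 5p for KO-TRAMP against WT-TRAMP at 10 weeks (1, 8), -0.19 to 0.15 in 3p for A537T against WT at 30 weeks (positive without 20, 21, 25 or 27), -0.35 to 0.020 in 3p for A537T-TRAMP against WT-TRAMP at 10 weeks (4), -0.21 to 0.017 in 5p for WT at 30 against 10 weeks (28), -0.070 to 0.24 in 3p for KO-TRAMP against KO at 10 weeks (8) and -0.0082 to 0.19 in 5p for A537T at 30 against 10 weeks (35). The TRAMP effect at 10 weeks ran from -0.085 to 0.18 in 5p for KO minus WT and from -0.11 to 0.31 in 3p for A537T minus WT. The pooled TRAMP differences without library 35 were 0.31 and 0.42.

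The number of miRNAs called, used as background, moved by over 1.5 times in 14 of 16 contrasts. For KO against WT it was 19 and ran from 0 (own groups) to 71 (without library 28) at 10 weeks, and was 0 and at most 75 (without library 19) at 30 weeks. For A537T against WT it was 0 and at most 2 at 10 and 20 at 30 weeks, and for A537T-TRAMP against WT-TRAMP at 10 weeks 0 and at most 2. For TRAMP at 10 weeks it was 210 (98 to 295) in KO and 185 (102 to 240) in A537T, and for age 47 (20 to 63) in WT, 65 (34 to 151) in KO and 70 (35 to 111) in A537T. Interactions called 1 and at most 19 (TRAMP, KO), 0 and at most 1 (TRAMP, A537T), 0 and at most 60 (age, KO) and 0 and at most 12 (age, A537T).

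No paired analysis was possible because the columns carry no replicate number. Median-of-ratios scaling shifted the libraries by -0.40 to 0.44 (log2) against scaling by total. The 13 reads of 5p in library 35 limit its precision, and the 95% interval for KO against WT at 30 weeks spans -0.60 to 0.32 in 5p.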
